A study of Homo sapiens with 12 samples.

Results

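The respiratory chain genes are the genes for the subunits of complexes I to V of the inner mitochondrial membrane, here chosen by symbol from the protein-coding genes of the processed table: symbols starting with NDUFA, NDUFB, NDUFC, NDUFS, NDUFV, UQCR, COX4 to COX8, ATP5 or MT-, together with SDHA, SDHB, SDHC, SDHD and CYC1. The choice used names only, and gave 106 of the 17013 genes of the table (13611 of them protein coding). 93 members are nuclear and 13 are encoded by the mitochondrial genome. The symbol rule also takes in 8 complex I assembly factors (NDUFAF genes), which are not subunits and are described separately. 6 further genes that match the rule by symbol are not analysed here (COX6A2, COX7A1, COX8C, ATP5MGL and the readthrough genes ATP5MF-PTCD1 and NDUFC2-KCTD14).

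The values come from mRNA-seq of HCC1806, a triple-negative breast cancer cell line, in 12 libraries of 4 groups with 3 libraries each. Cells were transfected with a non-targeting siRNA (siNT) or with a pool of siRNAs against MLK4 (siMLK4), a mixed lineage kinase whose gene symbol is MAP3K21, and then received 1 μM doxorubicin, an anthracycline that poisons topoisomerase II, for 24 h, or vehicle. Vehicle is DMSO in the labels, whose short titles call these libraries t0. A supplementary figure legend of the study also names DMSO, beside doxorubicin, with a time of 24 h. The methods of the study describe untreated cells instead, so its sources differ on whether these cells were kept for 24 h with DMSO. All groups are therefore transfected cells of 1 line, and no library of untransfected cells was compared. Transfections were in triplicate per the methods of the study, which name no separate experiments or days, so p-values measure the spread between these samples, which may be technical.

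Electrons from NADH and succinate enter the chain at complexes I and II, pass through ubiquinone, complex III and cytochrome c, and reach oxygen at complex IV. Complexes I, III and IV pump protons, and complex V, the ATP synthase, uses the returning protons to make ATP. Complex II is wholly nuclear, whereas the other complexes mix nuclear subunits with subunits that the mitochondrial genome encodes, so both genomes have to supply parts of 1 machine.

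Depth ranged from 16759025 to 19302248 reads per library. Levels are given as normalized reads, which are reads divided by the size factors of the authors (0.852 to 1.199). Changes are log2 fold changes of the deposited variance-stabilized log2 values with their standard errors (SE), which understate the change of genes with few reads. Adjusted p-values are from limma with Benjamini-Hochberg adjustment over all 17013 genes, and "rose" and "fell" stand for an adjusted p under 0.05. The labels could be checked on the siRNA target: MAP3K21 had 553, 670 and 674 normalized reads in siNT vehicle against 103, 94.7 and 88.7 in siMLK4 vehicle, and 758, 856 and 772 against 113, 138 and 94.4 with doxorubicin (log2 fold changes −2.24 and −2.37, limma adjusted p = 9.74e-08 and 1.12e-07). The cells carried the epithelial and basal markers of such a line, with a mean of 20878 normalized reads for KRT5, 13823 for EPCAM and 4837 for TP63 in siNT vehicle. The progesterone receptor gene PGR was at 0 reads in all 6 vehicle libraries, and ESR1 had a mean of 92.7 normalized reads in siNT vehicle. Markers of other cell types were low in siNT vehicle, with 2 of 5 leukocyte markers measured (CD14 at 11.4 and PTPRC at 5.48 normalized reads) and 3 of 5 fibroblast markers measured (COL1A1 at 286, LUM at 138 and PDGFRB at 14.1).

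2 libraries stood apart for these genes. The nuclear members together had 203992 normalized reads in siNT vehicle replicate 1, against 164295 and 148129 in the other 2 of its group, and 204636 in siMLK4 vehicle replicate 3, against 132702 and 153518 in the other 2. The same 2 libraries had the flattest increase of log2 level with transcript length within their groups, at 0.497 against 0.575 and 0.626 for each doubling of length in siNT vehicle, and 0.459 against 0.618 and 0.568 in siMLK4 vehicle. Nuclear members have short transcripts (median 804 bases against 3353 for the protein-coding genes of the table), and 54 of the 93 are under 1000 bases. Counts with doxorubicin are given below also without these libraries. The median SD within groups was 0.26 on the log2 scale for nuclear and 0.53 for mitochondrially encoded members. It was 0.17 for all genes and 0.16 for genes with a mean over 500 normalized reads. The part of this spread in the shares that passed was not tested.

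Levels differed widely between the genomes and between genes, and less between the medians of the nuclear complexes. Per kilobase of transcript, in siNT vehicle cells, the mitochondrially encoded mRNAs reached from 1627 normalized reads for MT-ND6 to 61644 for MT-CO2, the gene of the copper-binding subunit 2 of complex IV. The nuclear subunits had medians of 1484 normalized reads per kilobase for complex I, 1923 for complex II, 1306 for complex III, 1770 for complex IV and 2093 for complex V, whereas the assembly factors had a median of 414. NDUFB9, an accessory subunit of the membrane arm of complex I, was the highest nuclear member, at 12045 normalized reads per kilobase, followed by ATP5F1B, the catalytic beta subunit of the ATP synthase, at 9932. 9 members whose annotated transcript is over 3000 bases and over 4 times the coding length were left out of this comparison of levels. 6 members were scarcely measured, with under 50 normalized reads in their highest group (COX6B2, NDUFA4L2, NDUFA7, NDUFA13, NDUFV2 and UQCRHL).

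**Figure D1:**
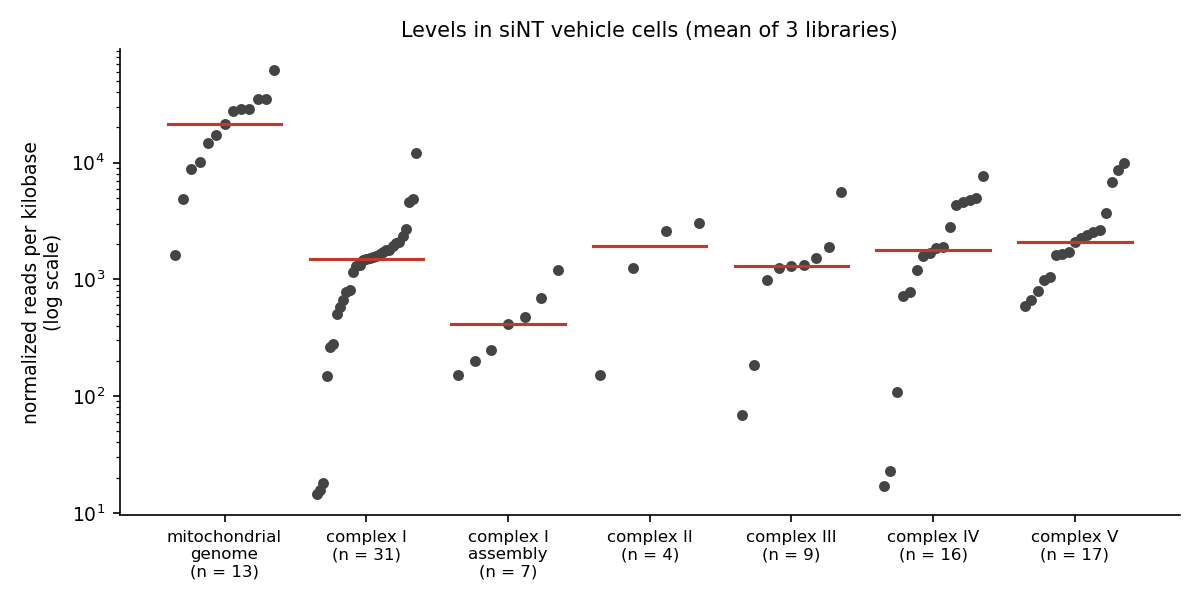
Levels of the respiratory chain genes in siNT vehicle cells, as normalized reads per kilobase of transcript on a log scale, by genome and complex. Each point is 1 gene (mean of 3 libraries) and each red line is the median of its column, 1484 for nuclear complex I and 414 for its assembly factors; of the mitochondrially encoded mRNAs all but MT-ND6 (1627) lie above every nuclear median.

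On the scaling of the authors, fewer of the respiratory chain genes than of all genes passed the test with doxorubicin, and more of them fell than rose, but both depended on the fit. In siNT cells 10 members rose and 24 fell, so that 32.1% of the 106 members passed the test against 57.3% of all genes tested (29.6% rose and 27.7% fell). In siMLK4 cells the counts were again 10 and 24, beside 57.9% of all genes (30.2% rose and 27.7% fell). At the thresholds of the study (adjusted p below 0.01 with a change beyond 0.75 on the log2 scale in either direction), 3 members rose and 6 fell in siNT cells and 2 rose and 7 fell in siMLK4 cells, where 22.7% and 23.2% of all genes passed. The median log2 fold change of the nuclear members was −0.13 in siNT and −0.14 in siMLK4 cells, beside 0.00 and 0.02 for all genes, but with library totals in place of size factors it was 0.09 and 0.04, beside 0.18 and 0.16 for all genes, and 19 members rose and 10 fell in siNT cells and 15 rose and 15 fell in siMLK4 cells. A further fit took the slope of log2 level on transcript length in each library as a covariate. This slope is a property of the whole library, read from the same values, and does not correct each gene for its length. With a slope on transcript length in the fit, 10 members rose and 61 fell in siNT cells and 15 rose and 47 fell in siMLK4 cells, so that 67% and 58.5% of the members passed, beside 67.1% and 68.9% of all genes. The share in siNT cells was then that of all genes. With library totals the members that passed were 27.4% in siNT and 28.3% in siMLK4 cells, beside 57.8% and 58.9% of all genes. Without siNT vehicle replicate 1, 12 members rose and 18 fell in siNT cells, and without siMLK4 vehicle replicate 3, 19 rose and 15 fell in siMLK4 cells.

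The cell type markers moved with doxorubicin too. Of 8 basal epithelial markers 5 fell in siNT and 6 in siMLK4 cells (medians −1.25 in both). Their sum was 70769, 74774 and 76202 normalized reads in siNT vehicle and 39179, 41112 and 43787 with doxorubicin, and 70936, 67428 and 65901 against 28924, 27893 and 31510 in siMLK4 cells. KRT5 was the most abundant of them in siNT vehicle. Of the 3 fibroblast markers measured 2 fell in siNT and 3 in siMLK4 cells, with sums of 390 to 474 normalized reads in siNT vehicle and 282 to 306 with doxorubicin, and 667 to 834 against 362 to 503 in siMLK4 cells. Both leukocyte markers measured rose in siNT cells and PTPRC rose in siMLK4 cells, with sums of 12.9 to 19.1 normalized reads in siNT vehicle and 38.7 to 52.6 with doxorubicin, and 19.04 to 36.8 against 49.2 to 64.2 in siMLK4 cells. Of the 3 hormone receptor and HER2 genes (ESR1, PGR and ERBB2), 1 rose and 1 fell in each arm. Their log2 fold changes lay between −0.61 and 0.98 in siNT cells and between −0.78 and 0.92 in siMLK4 cells. The part of these shifts in the changes of the members was not tested.

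The arms share no library. 6 members rose in both (60% of each list): the complex I genes NDUFA2, NDUFA6, NDUFB5 and NDUFC1, the assembly factor NDUFAF7 and MT-ND6. The siNT call of NDUFB5 (0.46, limma adjusted p = 0.0391) was lost when any 1 siNT doxorubicin library, replicate 2 or 3 of siNT vehicle or replicate 1 of siMLK4 doxorubicin was left out (limma adjusted p = 0.0518 to 0.133), with the replicate block (0.0507) and with TMM factors (0.0509). 20 fell in both (83.3% of each list), 8 of them in complex V. Over all genes tested, 4092 rose in both (81.4% of the siNT and 79.6% of the siMLK4 list) and 3664 fell in both (77.7% of each). Leaving out 1 library gave between 4 and 9 that rose in both, the highest without siMLK4 vehicle replicate 3, and between 12 and 20 that fell, the lowest without siMLK4 doxorubicin replicate 2 (12) and siNT doxorubicin replicate 2 (13). A test of the response in siMLK4 against that in siNT cells (the interaction) passed for 0 members in limma and for 0 in limma-voom on the recovered reads. In limma it passed for 1.2% of all genes (0.576% upward, 0.623% downward, and 0.276% at the thresholds of the study). At an unadjusted p under 0.05 were 5 of the 106 members, beside 2469 of the 17013 genes tested. With a slope on transcript length the interaction passed for 6 members (5 upward and 1 downward, 5.66%), beside 8.24% of all genes. The 6 were CYC1, NDUFAF4, NDUFS7, NDUFV1 and UQCRFS1 upward and NDUFAF7 downward. For the other members, passing in 1 arm only does not show a difference between the arms. With library totals 11 members rose and 7 fell in both arms, with TMM factors 4 and 20, and with a slope on transcript length in the fit 9 and 43.

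**Figure D2:**
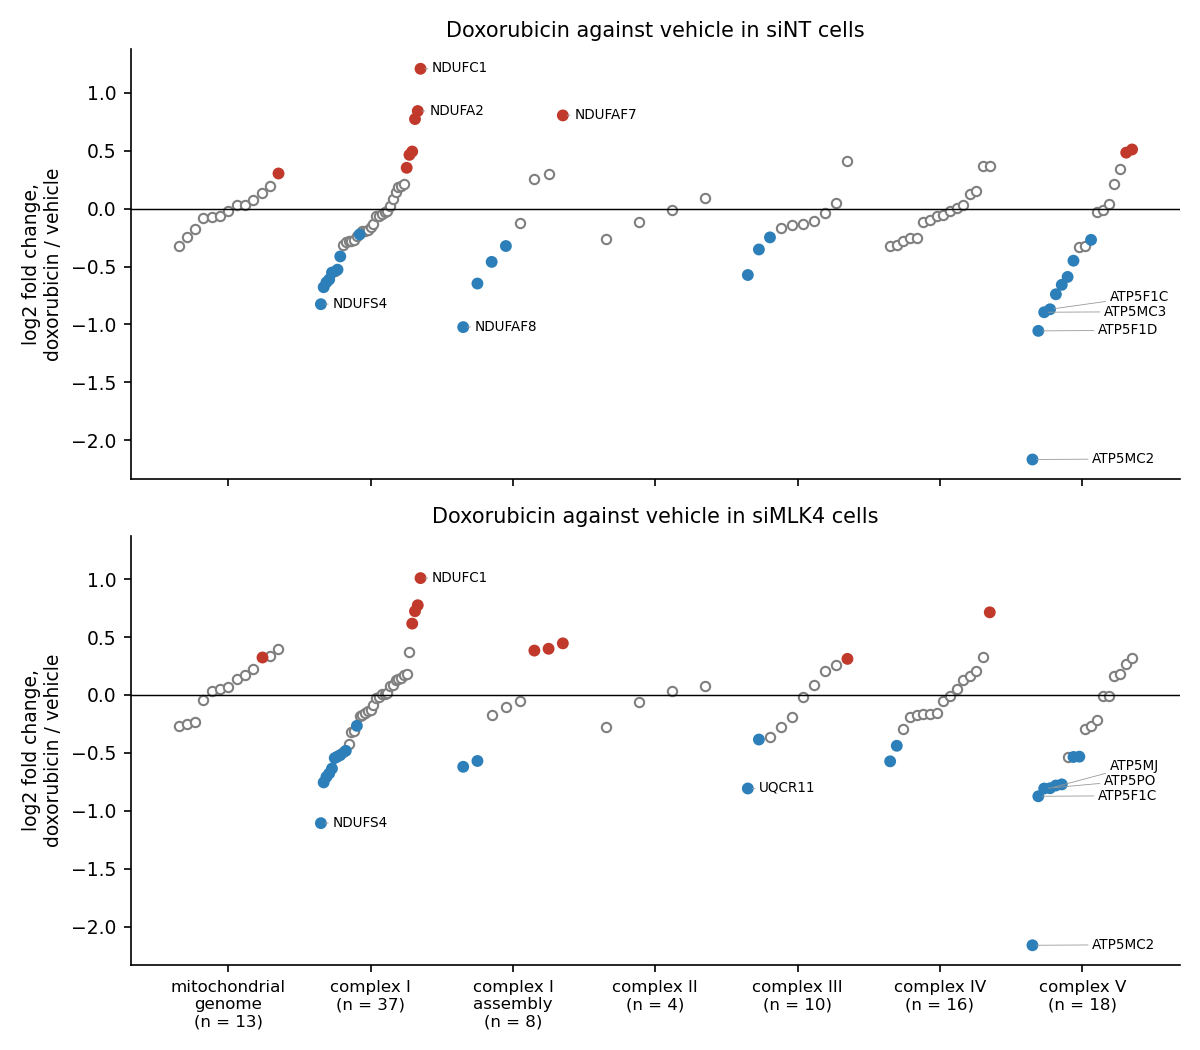
Log2 fold change of doxorubicin against vehicle for each of the 106 members, in siNT cells (top) and siMLK4 cells (bottom), by mitochondrial genome and nuclear complex. Filled red points rose and filled blue points fell at an adjusted p under 0.05 (limma, size factors of the authors), open points did not pass, and the genes with the largest changes are named; ATP5MC2 lies lowest in both panels, at −2.17 and −2.16. With library totals as scaling the medians of the nuclear columns move upward, and that of complex V stays below 0.

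Most ATP synthase genes that passed had fallen. 2 of its 18 nuclear genes rose and 9 fell in siNT cells (median log2 fold change −0.33), and in siMLK4 cells 0 rose and 8 fell (median −0.41, with 9 at an unadjusted p under 0.05). The shares that passed, 61.1% and 44.4%, were near to and below those of all genes (57.3% and 57.9%). With library totals 4 rose and 4 fell in siNT cells (median −0.10) and 2 rose and 6 fell in siMLK4 cells (median −0.23). A slope on transcript length gave 2 that rose and 13 that fell in siNT cells (median −0.50), and 2 and 12 in siMLK4 cells (median −0.47). Without siNT vehicle replicate 1 the siNT counts were 3 and 6 (median −0.24), and without siMLK4 vehicle replicate 3 the siMLK4 counts were 3 and 6 (median −0.20). With library totals the falls of ATP5F1A, ATP5MJ, ATP5PB and ATP5PO no longer passed in siNT cells (limma adjusted p = 0.0543 to 0.0963). Neither did that of ATP5F1B (−0.03, limma adjusted p = 0.819), nor that of ATP5PB in siMLK4 cells (0.0535). The F1 head and central stalk, where ATP is made, had 4 of 5 genes that fell in siNT cells and 3 of 5 in siMLK4 cells, and with library totals 2 of 5 in each. The siNT call of ATP5F1B (−0.27) was lost in 8 of the 12 fits that left out 1 library (limma adjusted p = 0.0527 to 0.139), with only the groups compared (0.0786) and with the replicate block (0.0568).

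The largest change of any respiratory chain gene was that of ATP5MC2, 1 of the 3 genes that encode the c subunit, the repeated unit of the proton-driven ring (ENSG00000135390, chr12:53632726-53677408 of GRCh38, minus strand, 5 exons). It had 1644, 1252 and 1073 normalized reads in siNT vehicle and 245, 214 and 299 with doxorubicin, and 987, 1021 and 1938 in siMLK4 vehicle against 247, 218 and 258 with doxorubicin. Every doxorubicin library lay far below every vehicle library in both arms, and siMLK4 vehicle replicate 3 stood highest of all. ATP5MC2 was lower by 5.24-fold in siNT cells (log2 fold change −2.17, SE 0.22, limma adjusted p = 2.01e-06) and by 5.47-fold in siMLK4 cells (−2.16, SE 0.22, limma adjusted p = 2.15e-06), and it passed in all 12 fits that left out 1 library. Over the 8 alternative settings its log2 fold change lay between −2.38 and −1.94 in siNT cells and between −2.38 and −2.00 in siMLK4 cells.

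The other c subunit genes, whose mature proteins are the same and which differ in the targeting peptide that is cut off on import, changed less. ATP5MC3 (ENSG00000154518, chr2:175176258-175181710, minus strand) had 2572, 1877 and 1681 normalized reads in siNT vehicle and 1080, 918 and 1188 with doxorubicin, and 1387, 1702 and 2230 against 1010, 817 and 1198 in siMLK4 cells. Its groups did not overlap in either arm, and it fell by 0.89 in siNT and by 0.77 in siMLK4 cells on the log2 scale (limma adjusted p = 0.00109 and 0.00306). ATP5MC1 (ENSG00000159199, chr17:48892765-48895871, plus strand) had 1159, 1080 and 958 normalized reads in siNT vehicle and 876, 647 and 1015 with doxorubicin, with overlapping groups in both arms and log2 fold changes of −0.33 and −0.21 that did not pass. ATP5MC1 fell in both with a slope on transcript length (−0.47 and −0.28, limma adjusted p = 0.00196 and 0.0331). Summed over the 3 genes, the c subunit had 5374, 4209 and 3711 normalized reads in siNT vehicle and 2200, 1779 and 2502 with doxorubicin, and 3140, 3607 and 5288 against 2030, 1712 and 2358 in siMLK4 cells. Per length, ATP5MC2 made up 46.0% ± 2.1 of the c subunit mRNA in siNT vehicle and 18.9% ± 1.0 with doxorubicin (SD, n = 3), and 48.7% ± 5.0 and 19.3% ± 1.2 in siMLK4 cells, while the share of ATP5MC1 was 36.7% ± 3.0 in siNT vehicle and 61.5% ± 2.1 with doxorubicin. These shares are ratios within a library and do not depend on the scaling.

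**Figure D3:**
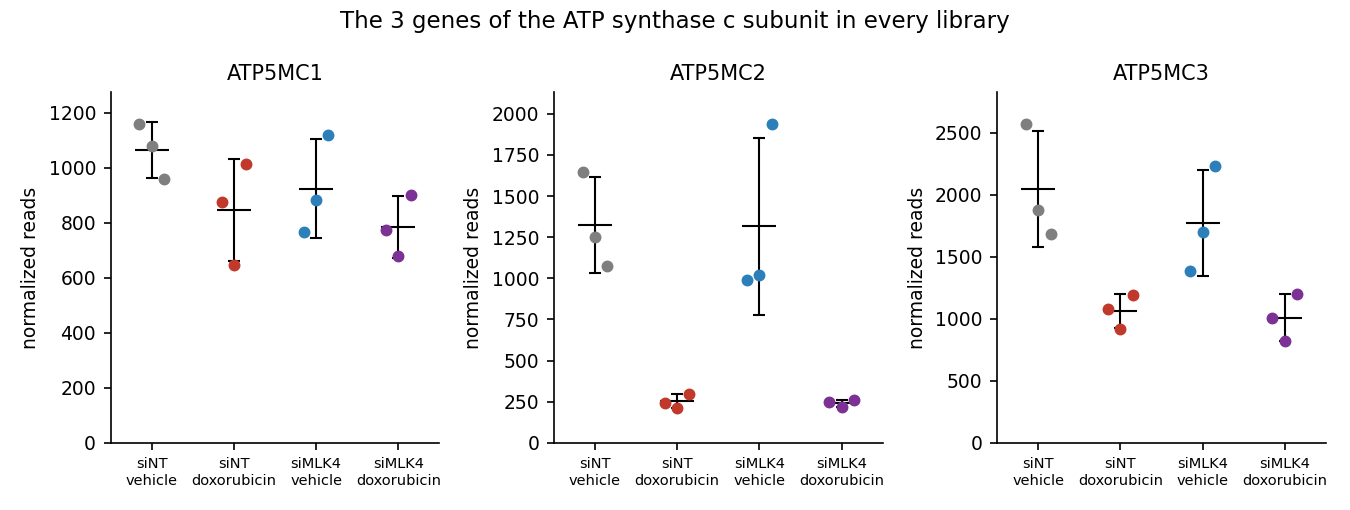
Normalized reads of the 3 genes of the ATP synthase c subunit in every library; points are libraries, long bars are means and error bars are SD (n = 3). The doxorubicin libraries of ATP5MC2 lie between 214 and 299, below every vehicle library (987 to 1938), those of ATP5MC3 lie below their own vehicle libraries, and those of ATP5MC1 overlap with vehicle.

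Among the other ATP synthase genes, ATP5F1C, the gamma subunit that turns inside the catalytic head, had 10367, 9183 and 8878 normalized reads in siNT vehicle and 5084, 4545 and 5916 with doxorubicin, and 7569, 8151 and 10434 against 4754, 3945 and 5476 in siMLK4 cells. The groups were separate in both arms, and it fell by 0.87 and 0.88 on the log2 scale (SE 0.15, limma adjusted p = 2.28e-04 and 2.13e-04). ATP5F1D, the delta subunit of the central stalk, varied more between vehicle libraries. It had 1455, 945 and 533 normalized reads in siNT vehicle and 495, 349 and 394 with doxorubicin, and 573, 748 and 1141 against 438, 350 and 544 in siMLK4 cells, with separate groups in both arms. It fell by 1.06 in siNT cells (SE 0.29, limma adjusted p = 0.00651) and by 0.78 in siMLK4 cells (limma adjusted p = 0.0322). The siMLK4 call of ATP5F1D was lost without siMLK4 vehicle replicate 2 or 3 or siMLK4 doxorubicin replicate 1 or 2 (limma adjusted p = 0.0601 to 0.135), and with library totals (0.0761). The catalytic alpha subunit gene ATP5F1A fell by 0.45 and 0.53, and the peripheral stalk genes ATP5PB and ATP5PO fell by 0.59 and 0.74 in siNT and by 0.54 and 0.81 in siMLK4 cells. 63.8% of the exon bases of ATP5PO are shared with another gene on the same strand, so its reads are uncertain. Its siNT call was lost when replicate 1 of siNT vehicle, or 2 or 3 of siNT doxorubicin, was left out (limma adjusted p = 0.0777 to 0.141), and its siMLK4 call without siMLK4 vehicle replicate 3 or siMLK4 doxorubicin replicate 2 (0.0765 to 0.0904). Against this direction, the stalk gene ATP5PD (0.51, limma adjusted p = 0.0304) and ATP5IF1, the inhibitor that blocks ATP hydrolysis by the synthase (0.48, limma adjusted p = 0.0277), rose in siNT cells. ATP5IF1 had 1561, 1202 and 1061 normalized reads in siNT vehicle and 1994, 1574 and 1799 with doxorubicin, and its call was lost when replicate 2 or 3 of siNT vehicle, or 1 or 3 of siNT doxorubicin, was left out (log2 fold change 0.37 to 0.48, limma adjusted p = 0.0632 to 0.112). That of ATP5PD was lost when replicate 2 or 3 of siNT vehicle, or 1 or 2 of siNT doxorubicin, was left out (limma adjusted p = 0.0515 to 0.148).

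In complex I, genes moved in both directions. Of 37 nuclear subunit genes, 6 rose and 8 fell in siNT cells (median −0.16) and 4 rose and 10 fell in siMLK4 cells (median −0.13). In each arm 37.8% passed, beside 57.3% and 57.9% of all genes. By contrast, with library totals 8 rose and 3 fell, and 4 rose and 7 fell (median 0.05 in both). The median also turned without siNT vehicle replicate 1 (6 rose and 5 fell in siNT cells, median 0.01) and without siMLK4 vehicle replicate 3 (6 and 6 in siMLK4 cells, median 0.04), and siNT doxorubicin replicate 2 left out gave 4 and 4 in siNT cells. With a slope on transcript length 6 rose and 23 fell in siNT cells (median −0.32) and 5 rose and 18 fell in siMLK4 cells (median −0.17). No direction is given for complex I, since it depended on the fit. NDUFC1, a small accessory subunit of the membrane arm (ENSG00000109390, chr4:139266880-139302551, minus strand), was the member that rose most. It had 675, 385 and 315 normalized reads in siNT vehicle against 1306, 1087 and 878 with doxorubicin, and 344, 431 and 750 against 1090, 973 and 1016 in siMLK4 cells. Every doxorubicin library was above every vehicle library. The mean level of NDUFC1 was 2.38-fold and 2.02-fold higher (log2 fold changes 1.21 and 1.01, SE 0.26, limma adjusted p = 0.0011 and 0.00383), in all 12 fits that left out 1 library.

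NDUFS4, an accessory subunit of the NADH-oxidizing module whose loss causes complex I deficiency, moved the other way. It had 1098, 941 and 941 normalized reads in siNT vehicle and 526, 490 and 598 with doxorubicin, and 685, 789 and 1018 against 336, 291 and 448 in siMLK4 cells. The groups were separate in both arms, and NDUFS4 fell by 0.83 and 1.11 on the log2 scale (SE 0.16, limma adjusted p = 4.8e-04 and 4.09e-05). In the same module NDUFA2 rose by 0.84 and 0.62 and NDUFA6 by 0.49 and 0.78 (limma adjusted p = 0.0029 and 0.0186, and 0.00622 and 0.00023). NDUFA2 had 658, 472 and 376 normalized reads in siNT vehicle and 1096, 901 and 788 with doxorubicin, and its siMLK4 call was lost without siMLK4 vehicle replicate 1 or 2 or siMLK4 doxorubicin replicate 1 (limma adjusted p = 0.0531 to 0.0855). NDUFV2 was listed as lower in both arms, but at 8.22 to 17.7 normalized reads in siNT vehicle libraries and with 90.0% of its exon bases shared with another gene, so that its value is uncertain.

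The 8 assembly factors of complex I, proteins that build the complex without staying in it, also split: 1 rose and 4 fell in siNT cells, and 3 rose and 2 fell in siMLK4 cells (with library totals 3 and 2, and 3 and 1). The share that passed, 62.5% in each arm, was near that of all genes (57.3% and 57.9%). Without siNT vehicle replicate 1 the siNT counts were 1 and 3, and without siMLK4 vehicle replicate 3 the siMLK4 counts were 3 and 1. NDUFAF7, a methyltransferase, had the smallest SD within groups of all members (0.045 on the log2 scale). It had 1042, 1046 and 1016 normalized reads in siNT vehicle and 1913, 1832 and 1799 with doxorubicin, and 1256, 1287 and 1342 against 1658, 1789 and 1671 in siMLK4 cells. NDUFAF7 rose by 0.81 (SE 0.09, limma adjusted p = 4.19e-06) and by 0.38 (limma adjusted p = 0.00182), with no overlap of the groups. The difference between these responses was −0.42 and did not pass (limma adjusted p = 0.111). It did pass with a slope on transcript length (−0.41, limma adjusted p = 0.0137). NDUFAF8 had 912, 688 and 420 normalized reads in siNT vehicle and 365, 279 and 240 with doxorubicin, and fell by 1.02 in siNT cells (SE 0.24, limma adjusted p = 0.00243). In siMLK4 cells it had 463, 663 and 845 against 403, 336 and 464, where the groups overlapped by 1 library, and its call there (−0.62, limma adjusted p = 0.0401) was lost without replicate 2 or 3 of siMLK4 vehicle, 1 or 2 of siMLK4 doxorubicin, or 2 of either siNT group (limma adjusted p = 0.0501 to 0.154). The replicate block also ended the siMLK4 call of NDUFAF8 (limma adjusted p = 0.0583, over the 8 alternatives 4.92e-05 to 0.115).

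Fewer genes of complexes II, III and IV passed than of all genes, but these counts depended on the fit. The shares that passed were 0, 30 and 0% in siNT cells, beside 57.3% of all genes. In siMLK4 cells they were 0, 30 and 18.8%, beside 57.9%. With a slope on transcript length, 3 of 4 complex II, 7 of 10 complex III and 10 of 16 complex IV genes fell in siNT cells, and 1, 5 and 8 in siMLK4 cells. Of all genes 67.1% and 68.9% passed with that slope. Without that slope, none of the 4 subunit genes of succinate dehydrogenase, which is also an enzyme of the citric acid cycle, passed in limma or in limma-voom in either arm, with 0 at an unadjusted p under 0.05, although with library totals 1 of them rose in siNT cells. None passed without siNT vehicle replicate 1 or siMLK4 vehicle replicate 3 either. Mean levels in siNT vehicle and siNT doxorubicin were 410 and 393 normalized reads for SDHA, 2632 and 2153 for SDHB, 1638 and 1748 for SDHC and 4082 and 3752 for SDHD. 69.4% of the exon bases of SDHA are shared with other genes, so its level is uncertain. Of the 16 nuclear complex IV genes none passed in siNT cells in limma or limma-voom, with 0 at an unadjusted p under 0.05, and in siMLK4 cells 1 rose (NDUFA4L2) and 2 fell (COX7C and COX7B2, by 0.44 and 0.57, calls lost without siMLK4 vehicle replicate 3 or siMLK4 doxorubicin replicate 2 and, for COX7C, siMLK4 doxorubicin replicate 1 or with only the groups compared, limma adjusted p = 0.0583); with library totals 1 rose in siNT cells, and 3 rose and 0 fell in siMLK4 cells. In complex III 3 of 10 genes fell in siNT cells, while 1 rose and 2 fell in siMLK4 cells, and with library totals the counts that rose and fell were 1 and 1, and 2 and 1. Without siNT vehicle replicate 1, complex III had 1 and 2 and complex IV 1 and 0 in siNT cells, and without siMLK4 vehicle replicate 3 they had 2 and 2 and 4 and 0 in siMLK4 cells. UQCR11, a small subunit of complex III, had 267, 230 and 225 normalized reads in siNT vehicle and 159, 122 and 158 with doxorubicin, and 178, 176 and 230 against 81.4, 80.0 and 114 in siMLK4 cells. UQCR11 fell in both arms with separate groups (−0.57 and −0.81, limma adjusted p = 0.00257 and 1.86e-04). The core subunit UQCRC2 fell by 0.35 and 0.38, calls lost when replicate 3 of siNT vehicle, or 1 or 2 of siNT doxorubicin, was left out, and without siMLK4 doxorubicin replicate 2 (limma adjusted p = 0.0847 to 0.101, and 0.0606), and with library totals (0.422 and 0.158). UQCRH and UQCRHL are near-identical copies, and how their reads were divided is uncertain.

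Several complex IV subunits have a second gene used mainly in other tissues. Per kilobase, COX4I2, the form induced in lung and by low oxygen, made up 1.35% ± 0.18 of the COX4 pair in siNT vehicle (SD, n = 3), COX6B2, the testis form, 0.467% ± 0.068 of its pair, and NDUFA4L2, known as a gene induced by low oxygen, 0.607% ± 0.413 of the pair with NDUFA4. COX7B2, which is known from testis, was the exception, at 52.3% ± 3.4 of the pair with COX7B in siNT vehicle and 55.5% ± 0.6 in siMLK4 vehicle. With doxorubicin the share of COX7B2 was 47.7% ± 1.3 in siNT and 47.1% ± 1.7 in siMLK4 cells. NDUFA4L2 had 17.0, 11.96 and 9.73 normalized reads in siMLK4 vehicle and 54.3, 35.9 and 35.4 in siMLK4 doxorubicin, where its groups did not overlap (log2 fold change 0.71, SE 0.15, limma adjusted p = 0.00123, in all 12 fits that left out 1 library).

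The 13 mRNAs of the mitochondrial genome are cut from long transcripts of both strands, and all but MT-ND6 come from 1 strand. Together they took 0.622, 1.36 and 1.97% of the reads in siNT vehicle, 1.60, 0.968 and 1.68% in siNT doxorubicin, 1.88, 1.34 and 1.54% in siMLK4 vehicle, and 1.67, 1.96 and 2.25% in siMLK4 doxorubicin. The siNT vehicle libraries thus differed by 3.17-fold among themselves, and the groups overlapped in each of the 4 comparisons. The median SD within groups was 0.53 on the log2 scale for these mRNAs, against 0.26 for the nuclear members and 0.17 for all genes. In siNT cells the median log2 fold change with doxorubicin was −0.02 (1 rose, 0 fell), but without siNT vehicle replicate 1 it was −0.59 (0 rose, 2 fell), so no direction can be given. In siMLK4 cells it was 0.07 (1 rose, 0 fell), but 0.21 without siMLK4 vehicle replicate 1, 0.01 without siMLK4 vehicle replicate 2, 0.20 and 0.02 without siMLK4 doxorubicin replicates 1 and 3, 0.25 with library totals and 0.20 with a slope on transcript length. MT-CYB, MT-ND2, MT-ND3, MT-ND4L, MT-ND5 and MT-ATP6 passed in no comparison with all 12 libraries in 1 fit on the scaling of the authors. MT-ND4L passed for the knock-down with doxorubicin when only the groups compared were fitted (0.32, limma adjusted p = 0.027). With doxorubicin against vehicle the log2 fold changes of these mRNAs lay between −0.25 (MT-ATP6) and 0.19 (MT-ND3) in siNT cells. Those in siMLK4 cells lay between −0.25 and 0.17, for the same genes. Other mRNAs moved further: MT-CO3 by −0.32 and −0.27 in siNT and siMLK4 cells, and MT-CO1 by 0.34 and MT-ND1 by 0.40 in siMLK4 cells. None of these changes passed with all 12 libraries on the scaling of the authors. A slope on transcript length added to that fit made MT-CO1 pass in siMLK4 cells (0.44, limma adjusted p = 0.0441).

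**Figure D4:**
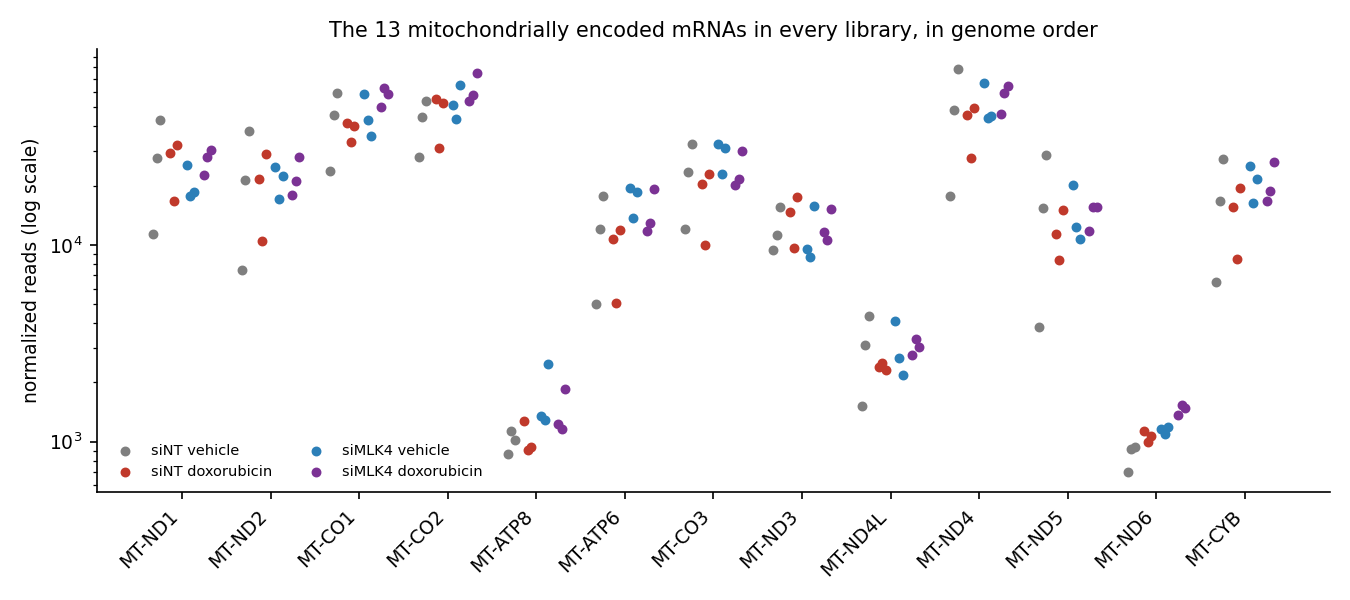
Normalized reads (log scale) of the 13 mitochondrially encoded mRNAs in every library, in the order of the genome; colours are the 4 groups. Within siNT vehicle, replicate 1 is the lowest library for each of the 13 mRNAs, and MT-ND6 is the mRNA whose groups are separate in all 4 comparisons, from 701 in siNT vehicle to 1527 in siMLK4 doxorubicin.

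MT-ND6, which encodes a membrane subunit of complex I (ENSG00000198695, chrM:14149-14673, minus strand), was the mitochondrial mRNA that passed in all 4 comparisons. It had 701, 921 and 941 normalized reads in siNT vehicle, 1133, 994 and 1070 in siNT doxorubicin, 1161, 1095 and 1187 in siMLK4 vehicle, and 1365, 1527 and 1486 in siMLK4 doxorubicin. In each comparison the groups were separate. It rose with doxorubicin by 0.31 in siNT and 0.33 in siMLK4 cells (SE 0.12, limma adjusted p = 0.0317 and 0.0232), and it was higher in siMLK4 than in siNT cells by 0.41 with vehicle and 0.44 with doxorubicin (limma adjusted p = 0.0164 and 0.0133). These calls were close to the threshold. The siNT call was lost when replicate 1 of siNT vehicle (log2 fold change 0.18, limma adjusted p = 0.156) or replicate 1 or 3 of siNT doxorubicin was left out (limma adjusted p = 0.109 and 0.0689), and the siMLK4 call without siMLK4 vehicle replicate 2 or siMLK4 doxorubicin replicate 2 or 3 (limma adjusted p = 0.0554 to 0.078). Those of the knock-down were lost without siNT vehicle replicate 1 in vehicle (limma adjusted p = 0.0669), and without replicate 2 of either doxorubicin group with doxorubicin (limma adjusted p = 0.0526 to 0.0599). The siNT call was also lost with TMM factors (0.0512) and, like that of the knock-down in vehicle, when only the groups compared were fitted (0.068 and 0.0709). The composition of the mitochondrial mRNA varied between libraries, with MT-CO2 at a mean of 18.5%, MT-ND4 at 17.4% and MT-CO1 at 16.7% of the mitochondrial mRNA reads over the 12 libraries and MT-ND6 at 0.425%. The share of MT-ND1 was 8.87 to 10.9% in the siNT and 6.39 to 8.88% in the siMLK4 libraries, with separate groups within each treatment. That of MT-CO3 was lower with doxorubicin, at 6.08 to 7.77% against 8.10 to 9.37% in siNT and 6.90 to 8.17% against 9.33 to 10.7% in siMLK4 cells. These shares were not tested. The mitochondrial ribosomal RNAs, which are not members, rose with doxorubicin in siMLK4 cells (MT-RNR1 by 0.75 and MT-RNR2 by 0.61) and, for MT-RNR1, in siNT cells (0.54). In poly(A)-selected libraries their level also depends on how they are captured, and its part was not tested.

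On the scaling of the authors, few respiratory chain genes passed with knock-down of MLK4. Their median SD within groups was larger than that of all genes, as given above, and its part in these counts was not tested. With vehicle 3 members rose and 4 fell, so that 6.60% passed, beside 25.8% of all genes (12.7% rose and 13% fell), and with library totals, which moved the median of all genes by 0.11, 5 rose and 2 fell. With doxorubicin 4 rose and 4 fell, so that 7.55% passed, beside 24.8% of all genes (12.7% rose and 12.1% fell), and with library totals 4 rose and 3 fell. At the thresholds of the study 0 members passed with vehicle in limma and 1 with doxorubicin, beside 5.65% and 5.58% of all genes. With vehicle 15 of the 106 members were at an unadjusted p under 0.05, beside 6301 of the 17013 genes tested. The share of members that passed with library totals was 6.6% in both comparisons, beside 27% of all genes. With a slope on transcript length 7 rose and 21 fell with vehicle and 15 rose and 16 fell with doxorubicin (26.4% and 29.2% of the members, beside 40.4% of all genes in both). Of the 8 basal epithelial markers 1 rose and 4 fell with the knock-down in vehicle and 4 fell with doxorubicin, and 1 of the 3 fibroblast markers rose in both (COL1A1). 1 leukocyte marker (CD14) and 1 of the 3 hormone receptor and HER2 genes rose with vehicle. Their part in the changes of the members was not tested. The 2 comparisons use different libraries from each other, but each shares its libraries with the doxorubicin comparisons.

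NDUFB9 (ENSG00000147684) was the member with the largest difference. It had 10994, 7628 and 6347 normalized reads in siNT vehicle against 3764, 4641 and 6064 in siMLK4 vehicle, and 8458, 7625 and 8707 in siNT doxorubicin against 3661, 3365 and 4497 in siMLK4 doxorubicin. The groups were separate in both comparisons, by a wide margin with doxorubicin and barely with vehicle. NDUFB9 fell by 0.77 with vehicle (SE 0.20, limma adjusted p = 0.0104) and by 1.1 with doxorubicin (limma adjusted p = 0.00108), in all 12 fits that left out 1 library. When only the 2 groups compared were fitted, the vehicle call of NDUFB9 was lost (limma adjusted p = 0.0688, over the 8 alternatives 2.9e-06 to 0.0688). Doxorubicin itself did not move NDUFB9 past the threshold in either arm (0.03 and −0.31). NDUFB9 fell in siMLK4 cells with a slope on transcript length (−0.40, limma adjusted p = 7.08e-04).

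NDUFAF4, a factor that helps build the ubiquinone-binding arm, had 728, 506 and 553 normalized reads in siNT vehicle, 266, 376 and 435 in siMLK4 vehicle, 392.2, 346 and 337 in siNT doxorubicin, and 347, 303 and 367 in siMLK4 doxorubicin. Only the siNT vehicle libraries stood above the rest. NDUFAF4 fell by 0.67 with the knock-down in vehicle (SE 0.16, limma adjusted p = 0.0073) and by 0.65 with doxorubicin in siNT cells (limma adjusted p = 0.00328), and both comparisons share the siNT vehicle libraries. The knock-down call of NDUFAF4 was lost when only the groups compared were fitted (0.0561). NDUFA5, a subunit near the ubiquinone module, fell by 0.38 with vehicle and 0.40 with doxorubicin (limma adjusted p = 0.0339 and 0.0262). Its levels were 1615, 1408 and 1468 normalized reads in siNT vehicle against 1132, 1149 and 1139 in siMLK4 vehicle, and 1317, 1205 and 1584 against 973, 916 and 1186 with doxorubicin, where all groups were separate. The vehicle call of NDUFA5 was lost without any 1 of the 6 vehicle libraries or siMLK4 doxorubicin replicate 1 (limma adjusted p = 0.051 to 0.101), and the other without siNT doxorubicin replicate 3 or siMLK4 doxorubicin replicate 1 or 2 (0.103 to 0.129). Library totals ended both (0.144 and 0.0555). NDUFAF2 fell by 0.46 with vehicle, a call lost without replicate 1 or 2 of either vehicle group (limma adjusted p = 0.0685 to 0.0986), with library totals (0.0752) and with only the groups compared (0.0707). NDUFS4 and UQCR11 fell by 0.54 and 0.49 with doxorubicin, and lost their calls without siMLK4 doxorubicin replicate 1 or 2 or siNT doxorubicin replicate 3, and UQCR11 also without siNT doxorubicin replicate 1 (limma adjusted p = 0.0815 to 0.103 for NDUFS4 and 0.0651 to 0.085 for UQCR11).

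The members that rose with the knock-down were mostly lowly expressed or mitochondrial. With vehicle these were NDUFAF7 (0.31), MT-ND6 and MT-ATP8, and with doxorubicin MT-ND6, CYC1 (0.34), COX6B2 (0.48) and NDUFA4L2 (0.51). MT-ATP8 had 870, 1130 and 1020 normalized reads in siNT vehicle against 1351, 1284 and 2493 in siMLK4 vehicle, with separate groups. The call of MT-ATP8 (0.68, limma adjusted p = 0.0449) was lost without any 1 siNT vehicle library, siMLK4 vehicle replicate 3, replicate 2 or 3 of siNT doxorubicin or replicate 1 of siMLK4 doxorubicin (limma adjusted p = 0.054 to 0.17), and the log2 fold change was 0.38 without siMLK4 vehicle replicate 3. With only the groups compared, the vehicle calls of MT-ATP8 and NDUFAF7 did not pass (limma adjusted p = 0.104 and 0.0579). COX6B2 had 27.7, 20.4 and 26.4 normalized reads in siNT doxorubicin against 52.6, 46.7 and 46.3 in siMLK4 doxorubicin (limma adjusted p = 0.0107), with separate groups, and its call was lost without siNT doxorubicin replicate 2 or siMLK4 doxorubicin replicate 1 (0.051 to 0.0516). That of NDUFA4L2 was lost when replicate 1 or 2 of siNT doxorubicin, or 1 of siMLK4 doxorubicin, was left out (limma adjusted p = 0.0678 to 0.125). On log2 of normalized reads plus 1 the difference of NDUFA4L2 was larger, at 1.09, and did not pass (limma adjusted p = 0.0513). Of the 13 mitochondrial mRNAs, 11 had a positive log2 fold change with vehicle (median 0.33), but 5 did without siNT vehicle replicate 1 (median −0.21), so no direction can be given. With doxorubicin 12 were positive (median 0.44), and 10 without siNT doxorubicin replicate 2 (median 0.21). In the 2 comparisons 2 and 1 passed. When only the groups compared were fitted, MT-CO1 and MT-ND4L also rose with the knock-down in doxorubicin (0.58 and 0.32, limma adjusted p = 0.00645 and 0.027).

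CYC1, the cytochrome c1 subunit of complex III that hands electrons to cytochrome c, had the lowest p of the members for a difference between the doxorubicin responses. It had 2440, 2341 and 2034 normalized reads in siNT vehicle and 1970, 1886 and 1841 with doxorubicin, against 1871, 2096 and 1847 in siMLK4 vehicle and 2496, 2415 and 2334 with doxorubicin. In siNT cells every doxorubicin library was below every vehicle library, and in siMLK4 cells every one was above. The log2 fold changes of CYC1 were −0.25 (SE 0.10, limma adjusted p = 0.0448) and 0.31 (limma adjusted p = 0.0151), and their difference of 0.56 (SE 0.14) did not pass (limma adjusted p = 0.0692). The difference passed with a slope on transcript length (0.57, limma adjusted p = 0.00687). The siNT call of CYC1 held only without siNT vehicle replicate 3 or siMLK4 vehicle replicate 2 or 3, and was lost without any other library (limma adjusted p = 0.0504 to 0.139), with library totals (0.92) and with only the groups compared (0.0902). The siMLK4 call was lost without siMLK4 doxorubicin replicate 1 (0.0623), and the higher level in siMLK4 with doxorubicin (0.34, limma adjusted p = 0.0228) without replicate 1 or 2 of siMLK4 doxorubicin or 2 or 3 of siNT doxorubicin (0.0626 to 0.0976).

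**Figure D5:**
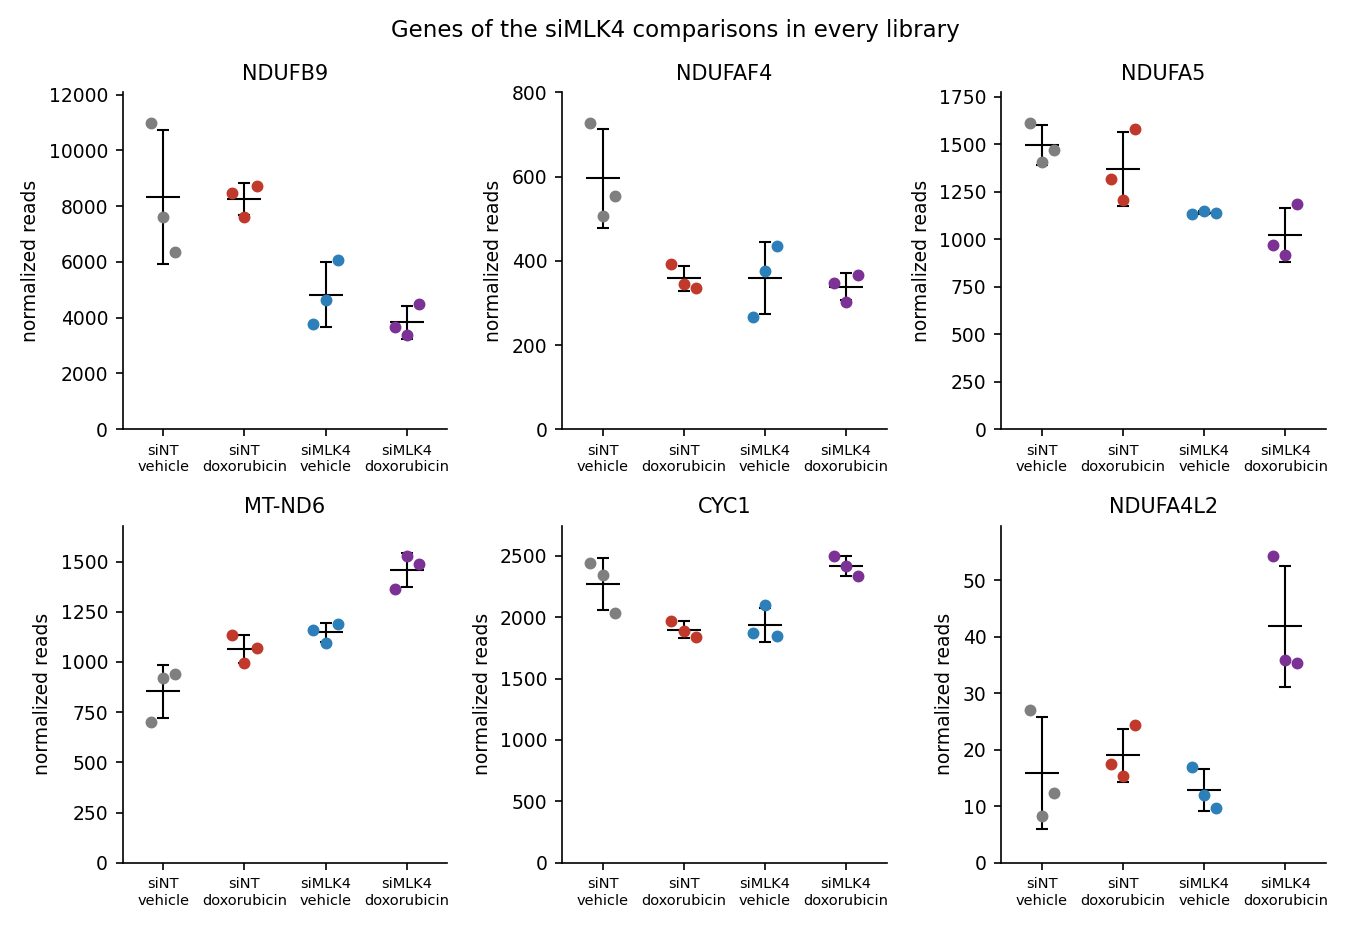
Normalized reads of 6 members in every library, chosen from those that passed in a comparison of siMLK4 with siNT; points are libraries, long bars are means and error bars are SD (n = 3). NDUFB9 and NDUFA5 lie lower in the siMLK4 groups, NDUFAF4 is high in siNT vehicle (506 to 728) alone, MT-ND6 is higher in siMLK4, CYC1 moves in opposite directions with doxorubicin in the 2 arms, and NDUFA4L2 is highest in siMLK4 doxorubicin (35.4 to 54.3).

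Many nuclear respiratory genes are known to carry sites for the transcription factor NRF1 near their starts, and the NRF1 mRNA itself fell with doxorubicin. NRF1 had 294, 323 and 326 normalized reads in siNT vehicle and 96.9, 88.6 and 102 with doxorubicin, and 275, 339 and 263 against 111, 92.6 and 122 in siMLK4 cells. No library of 1 treatment reached those of the other (log2 fold changes −1.34 and −1.12, SE 0.12, limma adjusted p = 7.2e-07 and 3.33e-06). Promoters from 250 bases before to 50 bases after the start were found in RefSeq (GRCh38.p14) for 75 of the 93 nuclear members. The core letters GCATGCG of the NRF1 site, read on both strands and at any listed start of a gene, were found in the promoters of 16 of these 75 members (21.3%), of 4.74% of all genes in the table of promoters and of 7.25% of the genes tested. The ETS letters CCGGAAG, bound by GABPA among others, were found for 30.7% of the members and 20.8% of the genes tested, the YY1 letters AAGATGG for 25.3% and 8.92%, and the letters TATAAA for 8.0% and 8.96%. No motif contains another, though AAG is shared by the ends of the ETS and YY1 letters, so that matches may overlap. Of the 16 members with the NRF1 letters 1 rose and 6 fell in siNT cells (median −0.23) and 1 rose and 5 fell in siMLK4 cells (median −0.15), and of the 59 without them 7 rose and 11 fell (median −0.11) and 5 rose and 14 fell (median −0.11). Among all genes tested 57.3% and 57.9% passed. The 19 members with the YY1 letters had lower medians, −0.26 and −0.27, against −0.07 and −0.06 without them. The 23 with the ETS letters had medians of −0.03 and −0.01, against −0.15 in both arms without them. These differences were not tested. A match is a description of letters and not a bound site.

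Of the 16 members with the NRF1 letters, the 6 below passed with doxorubicin in both arms, and are shown so that the shared core can be compared. Among the 17013 genes tested, 4092 rose and 3664 fell in both arms. Each stretch is given 5′ to 3′ on the strand of the gene (RefSeq, GRCh38.p14), and the capitals mark the letters GCATGCG or their reverse complement, which overlap where 8 letters are in capitals. NDUFA6 rose, and the other genes fell.
ATP5MC2 (chr12:53676091-53676151, minus strand): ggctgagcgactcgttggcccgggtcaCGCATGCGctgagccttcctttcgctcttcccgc
ATP5F1C (chr10:7788129-7788189, plus strand): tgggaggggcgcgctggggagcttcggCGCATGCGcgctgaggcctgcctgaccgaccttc
NDUFA8 (chr9:122159750-122159809, minus strand): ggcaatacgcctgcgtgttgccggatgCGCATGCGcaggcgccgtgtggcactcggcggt
NDUFB4 (chr3:120596151-120596211, plus strand): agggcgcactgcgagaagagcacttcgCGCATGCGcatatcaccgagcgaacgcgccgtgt
NDUFAF5 (chr20:13784998-13785057, plus strand): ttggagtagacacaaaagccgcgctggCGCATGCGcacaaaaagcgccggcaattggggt
NDUFA6 (chr22:42090905-42090965, minus strand): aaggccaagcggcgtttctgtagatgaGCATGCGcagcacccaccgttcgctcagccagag

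Besides ATP5MC2 and ATP5F1C, given above, NDUFA8, an accessory subunit of the membrane arm, had 1239, 1058 and 830 normalized reads in siNT vehicle against 712, 533 and 699 with doxorubicin, and fell by 0.64 and 0.55 in the 2 arms, the siMLK4 call being lost without siMLK4 vehicle replicate 3 or siMLK4 doxorubicin replicate 2 (limma adjusted p = 0.075 to 0.0881). With library totals neither call of NDUFA8 passed (0.0567 and 0.0808), nor the siNT calls of NDUFB4 and NDUFAF5 (0.122 and 0.0819). NDUFB4 fell by 0.55, a call lost without siNT doxorubicin replicate 2 (0.0912), and by 0.71, and NDUFAF5, an assembly factor that hydroxylates NDUFS7, by 0.46 and 0.57. NDUFA6 had 1265, 1235 and 1185 normalized reads in siNT vehicle and 1962, 1478 and 1848 with doxorubicin, so genes with the same letters lay on both sides. The letters start 21 bases before the start of transcription in ATP5F1C, 41 before it in ATP5MC2 and 166 before it in NDUFA6.

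Of the regulators of respiratory genes, 11 of 13 were measured, of which 0 rose and 4 fell with doxorubicin in siNT cells and 2 rose and 5 fell in siMLK4 cells. These were 36.4% and 63.6% of the list, beside 57.3% and 57.9% of all genes. MYC, which is known to drive mitochondrial gene expression, had means of 3975 and 3429 normalized reads in siNT vehicle and doxorubicin and of 1661 and 1162 in siMLK4. It fell with the knock-down by 1.23 and 1.53 (limma adjusted p = 3.54e-05 and 7.73e-06). The coactivator gene PPRC1 fell by 0.49 and 0.52 with doxorubicin, and lost both calls with library totals (limma adjusted p = 0.248 and 0.118). ESRRA and PPARGC1B fell by 0.61 and 0.64 with the knock-down in vehicle, and the call of PPARGC1B was lost with library totals and with only the groups compared (limma adjusted p = 0.0765 and 0.086).

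Of 16 genes for replication and transcription of mitochondrial DNA, 4 rose and 5 fell in siNT and 3 rose and 5 fell in siMLK4 cells with doxorubicin (56.2% and 50% passed, beside 57.3% and 57.9% of all genes). TOP1MT, the mitochondrial topoisomerase I, had 1643, 1481 and 1523 normalized reads in siNT vehicle and 294, 320 and 428 with doxorubicin, and 1316, 1352 and 1439 against 231, 194 and 270 in siMLK4 cells. TOP1MT fell by 2.02 and 2.33 with wholly separate groups (SE 0.13, limma adjusted p = 7e-08 and 3.78e-08). LRPPRC, which stabilizes mitochondrial mRNAs, had 14914, 13999.9 and 14369 normalized reads in siNT vehicle and 5160, 5463 and 4494 in siMLK4 vehicle, and 12804, 15529.9 and 13642 against 5228, 5748 and 4632 with doxorubicin. LRPPRC fell with the knock-down by 1.51 and 1.42 (SE 0.12, limma adjusted p = 1.37e-06 and 3.17e-06), the groups being separate, and doxorubicin did not move it past the threshold (−0.05 and 0.04). POLRMT, the mitochondrial RNA polymerase, fell by 0.54 in siNT cells with doxorubicin, and the mitochondrial transcription factor gene TFAM passed in none of the 5 comparisons on the scaling of the authors (means 2366, 2170, 2088 and 2025 normalized reads in siNT vehicle, siNT doxorubicin, siMLK4 vehicle and siMLK4 doxorubicin).

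Around the chain, doxorubicin moved genes in both directions, and 57.3% and 57.9% of all genes passed in the 2 arms. Among 14 genes for cytochrome c and ubiquinone synthesis 5 rose and 5 fell in siNT cells and 6 rose and 3 fell in siMLK4 cells (71.4% and 64.3% passed), and COQ3, a methyltransferase of ubiquinone synthesis, fell in both (by 1.24 in siNT cells). CYCS, cytochrome c itself, had means of 12782 and 12743 normalized reads in siNT vehicle and doxorubicin and of 8008 and 11619.7 in siMLK4. CYCS rose by 0.54 with doxorubicin in siMLK4 cells (limma adjusted p = 0.00192) and fell by 0.66 with the knock-down in vehicle (limma adjusted p = 0.00143), 2 comparisons that share the siMLK4 vehicle libraries. In the citric acid cycle 5 of 14 genes rose and 5 fell in each arm (71.4% passed), with citrate synthase CS falling by 1.13 and 0.84 and isocitrate dehydrogenase IDH2 rising by 1.21 and 1.74. SURF1, an assembly factor of complex IV, rose by 1.04 and 1.12. 5 of the 46 assembly factors outside the symbol rule rose and 12 fell in siNT cells, and 7 rose and 11 fell in siMLK4 cells (37.0% and 39.1% passed). Of 6 carriers, SLC25A5, an ADP/ATP exchanger, fell by 0.82 and 0.71, and UCP2, an uncoupling protein gene, rose by 1.1 and 0.89.

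Mitochondrial and cytosolic ribosomal protein genes, also mostly short, were compared on the scaling of the authors. Of 77 mitochondrial ribosomal protein genes 13 rose and 24 fell in siNT cells and 14 rose and 25 fell in siMLK4 cells (medians −0.16 and −0.15), which is 48.1% and 50.6% of them beside 57.3% and 57.9% of all genes. Of 84 cytosolic ribosomal protein genes 1 rose and 51 fell, and 1 rose and 59 fell (61.9% and 71.4%, medians −0.59 and −0.71). With the knock-down 0 mitochondrial ribosomal protein genes rose and 9 fell in vehicle and 1 rose and 11 fell with doxorubicin (11.7% and 15.6%, beside 25.8% and 24.8% of all genes). The share of protein-coding genes with a transcript under 1000 bases that passed with doxorubicin was 48.8% in siNT and 52.4% in siMLK4 cells, beside 31.5% and 35.2% of the 54 nuclear members of that length.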

How the data were processed

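mRNA was measured in 12 libraries. According to the methods of the study, poly(A) RNA was selected, and paired-end reads were aligned with Hisat2 to GRCh38, cleared of optical duplicates and assigned to genes by reverse strand. The processing notes of the submitters instead name hg19, beside Trimmomatic 0.39, HISAT2, HTSeq 0.6.0 and DESeq2 1.26.0. The build is thus unsettled, and coordinates here are those of GENCODE 44 (GRCh38), matched by gene identifier. The authors deposited log2 values of 17013 genes that had the form of a DESeq2 variance-stabilizing transformation. Which transformation was used is not given in the sources used here. It was inverted from the values, with 0 reads at 4.76032433, and every value came out whole within 0.05 reads, giving the reads, totals and size factors used above. The reads carry no molecular identifiers.

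The deposited log2 values were tested with limma 3.58.1 (R 4.3.3; trended eBayes) on 4 group means over all libraries, with Benjamini-Hochberg adjustment over 17013 genes. Alternatives were TMM factors, library totals, limma-voom on the recovered reads, log2 of normalized reads plus 1, at least 10 reads in every library, only the groups compared, a replicate block, a slope on transcript length, the thresholds of the study, and leaving out each library. The script was tested on simulated data.

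Correlations of same-numbered deviations, read from the values, were 0.46, 0.11 and 0.20 for siNT vehicle with siNT doxorubicin and 0.19, 0.52 and 0.56 for the doxorubicin groups, so numbers may pair these. They were −0.08, 0.18 and 0.34 within siMLK4 and −0.72, 0.32 and −0.52 between the vehicle groups, where numbers were not taken to pair. The main fit used no pairing, so its p-values do not take any into account. The replicate block applied the numbers to all libraries, the vehicle groups included. The members and lists were chosen with earlier results of these data known. The rule for naming genes took the mitochondrial members, complex II, tissue paralogues, ATP5IF1, the 3 highest and 3 lowest passing members of each comparison, the extremes of each complex, set regulators, and the top gene of each list. Some genes that it took are not named, and other members were named after their values were seen. Vehicle is DMSO in the labels and in a supplementary figure legend of the study, and untreated in the methods. PPARGC1A is not analysed here. Members without a result of their own are counted only, and 1 result is not reported here.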

Additional observations from a re-analysis of the deposited data

Results flagged for a closer look

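The doxorubicin responses of CYC1, the cytochrome c1 gene, went in opposite directions: every siNT doxorubicin library lay below every siNT vehicle library, and every siMLK4 doxorubicin library lay above every siMLK4 vehicle library. The difference between the log2 fold changes was 0.560061 (SE 0.14), which did not pass over all genes (limma adjusted p = 0.0692) but passed with a slope on transcript length (0.57, limma adjusted p = 0.00687). The fall of CYC1 in siNT cells was lost with library totals (−0.01, limma adjusted p = 0.92) and in 9 of the 12 fits that left out 1 library (limma adjusted p = 0.0504 to 0.139).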

How the results depend on the processing

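No call of a member turned its direction in the settings run, leaving out libraries included, except that of NDUFA10 in siNT cells, which went from −0.22 to 0.01 with library totals (limma adjusted p = 0.938). Counts of members moved with the setting. With library totals 19 rose and 10 fell with doxorubicin in siNT cells, 15 and 15 in siMLK4 cells, and 5 and 2 with the knock-down in vehicle. With a slope on transcript length 10 rose and 61 fell in siNT cells, 15 and 47 in siMLK4 cells, 7 and 21 with the knock-down in vehicle and 15 and 16 with doxorubicin, and 5 and 1 in the interaction. With only the groups compared, the knock-down gave 0 and 1 in vehicle and 8 and 7 with doxorubicin. At the thresholds of the study the counts were 3 and 6, 2 and 7, 0 and 0, and 0 and 1. The cause was not tested. Leaving out 1 library gave 4 to 12 that rose and 15 to 27 that fell in siNT cells, 7 to 19 and 13 to 30 in siMLK4 cells, 2 to 5 and 2 to 7 with the knock-down in vehicle, 0 to 5 and 1 to 5 with doxorubicin, and 0 to 1 and 0 to 0 in the interaction.

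With the replicate block 9 rose and 22 fell in siNT cells and 10 and 22 in siMLK4 cells, and the knock-down and interaction counts were 3 and 4, 4 and 4, and 0 and 0. Of the named genes, the block ended the calls of NDUFB5 in siNT cells (limma adjusted p = 0.0507) and of NDUFAF8 and GABPA in siMLK4 cells (0.0583 and 0.0533), and LUM (vehicle), IDH2 and UQCC2 (doxorubicin) passed with the knock-down (0.0431, 0.0486 and 0.0201). Among the other members it ended the calls of ATP5F1B and NDUFA10 in siNT cells (0.0568 and 0.0617) and of NDUFC2 in siMLK4 cells (0.0586), and it changed no other call of a member. Members with few reads (6 under 50 normalized reads) limit what depth can show.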
